A study of Mus musculus with 2 samples.

Results

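The genes described here encode caspase-8, its adaptor and regulator, the RIP kinases with the necroptosis effector MLKL, and the inhibitor of apoptosis (IAP) proteins. They were chosen by symbol: Casp8, Fadd, Ripk1, Ripk3, Mlkl, Cflar, Birc2, Birc3 and Xiap, 9 of the genes on a mouse array whose probe sets named 18193 genes. Probe sets assigned to exactly 1 gene were found for 8 of the 9, with 20 probe sets between them. Ripk1 had none in the annotation used and was not analysed here. The material was RNA from C57BL/6J bone marrow cells grown for 7 days in 20 ng/ml GM-CSF, a growth factor that turns marrow progenitors into dendritic cells, and then placed in medium with 10 ng/ml lipopolysaccharide (LPS), a bacterial cell wall component sensed by TLR4. The miR155-/- + LPS group came from mice without the microRNA miR-155 and the wild type + LPS group from mice that carry it; each was hybridised to 1 Affymetrix array. The labels call both samples dendritic cells, although the growth protocol speaks of macrophages. How old the mice were, how many were used and how long LPS was present are not given in the labels. No untreated cells were analysed here, so an effect of LPS itself could not be read.

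Caspase-8 is the protease that death receptors activate through the adaptor FADD. Its activation is tuned by cFLIP, the product of Cflar, a caspase-8 relative without protease activity. When caspase-8 is blocked, the kinases RIPK1 and RIPK3 assemble and RIPK3 phosphorylates MLKL, which breaks the plasma membrane in a lytic death called necroptosis. The IAP proteins cIAP1 (Birc2) and cIAP2 (Birc3) are ubiquitin ligases that keep RIPK1 in a survival signalling complex at the TNF receptor, and XIAP inhibits caspases directly. In myeloid cells LPS can feed into the same machinery through TLR4, the adaptor TRIF (Ticam1) and autocrine TNF. Fadd and Ripk1 have been reported as miR-155 targets.

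The deleted microRNA is shown because a match to its seed is what defines a candidate target site. The sequence is from RefSeq (GRCm38.p6, chr16:84714143-84714165, plus strand), and capitals mark the seed, bases 2 to 8.
mmu-miR-155-5p: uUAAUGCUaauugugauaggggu
No transcript sequences were given for the members, so seed matches in Fadd or the others were not looked for. The host transcript Mir155hg had a normalized signal of 159 on the miR155-/- + LPS array, against 1136 on the wild type + LPS array, 7.13-fold lower, which is in the direction of the labels. Whether this probe set reads sequence inside the deletion is not known here.

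Relative to the bulk of genes, the RIP kinase gene Ripk3 and the IAP gene Birc2 were higher in miR155-/- + LPS cells, and Casp8 was the lowest of the 8 measured genes. The log2 difference (miR155-/- + LPS minus wild type + LPS, after quantile normalization) was 0.56 for Ripk3, 0.33 for Birc2 and -0.45 for Casp8. It lay between -0.24 and -0.10 for Cflar, Xiap, Birc3, Mlkl and Fadd. In all, 6 of 8 genes were lower, beside 48.5% of the 11878 measured genes, and 2 were higher, beside 51.5%. None reached 1.5-fold in either direction. The share of all measured genes past 1.5-fold was 4.57% on the higher and 4.1% on the lower side, and 0.572% and 0.615% passed 2-fold. The median over the 8 genes was -0.14, against 0.01 over all measured genes, and their mean absolute difference was 0.27, against 0.25.

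With 1 array per genotype there was no spread between replicates, and no p-value, standard error or interval between genotypes could be given. The yardstick that the arrays do hold is how far probe sets for 1 gene differ among themselves, an SD of 0.29 log2 units over 11653 probe sets of 4410 genes (0.25 among genes of high signal, 0.29 in the middle and 0.34 among dim ones). It holds no variation between mice or cultures. In units of the SD over all levels (0.29), after quantile normalization, Ripk3 lay 1.91 from 0, Casp8 1.53 and Birc2 1.12. Ripk3, Casp8 and Birc2 are genes of high signal, where the SD was the smaller 0.25. The other 5 genes lay within 1 SD over all levels, as did 67.3% of all measured genes.

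The zero of these differences depends on the scaling of the arrays. The median deposited intensity was 78.3 on the miR155-/- + LPS array and 58.4 on the wild type + LPS array, and the median measured gene was 0.54 higher on the log2 scale in the deposited values, 0.23 higher after scaling on 18 hybridisation controls and 0.14 higher after centring on the median. Against that median gene, Ripk3 and Birc2 lay above and the other 6 below under each of the 5 scalings. The deposited, centred and hybridisation-control values differ only by a constant shift of each array. A place against the median gene is thus nearly fixed among them, and only quantile normalization and loess could have changed it. Against 0 the counts changed, with 2 genes higher and 6 lower under quantile normalization and loess, 5 and 3 under centring, 7 and 1 under hybridisation control scaling, and 8 and 0 in the deposited values. All genes called at 1.5-fold also shifted, from 52.7% higher among the calls under quantile normalization to 58.1% under loess, 72.4% under centring, 86.1% under hybridisation control scaling and 98.9% as deposited.

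**Figure D1:**
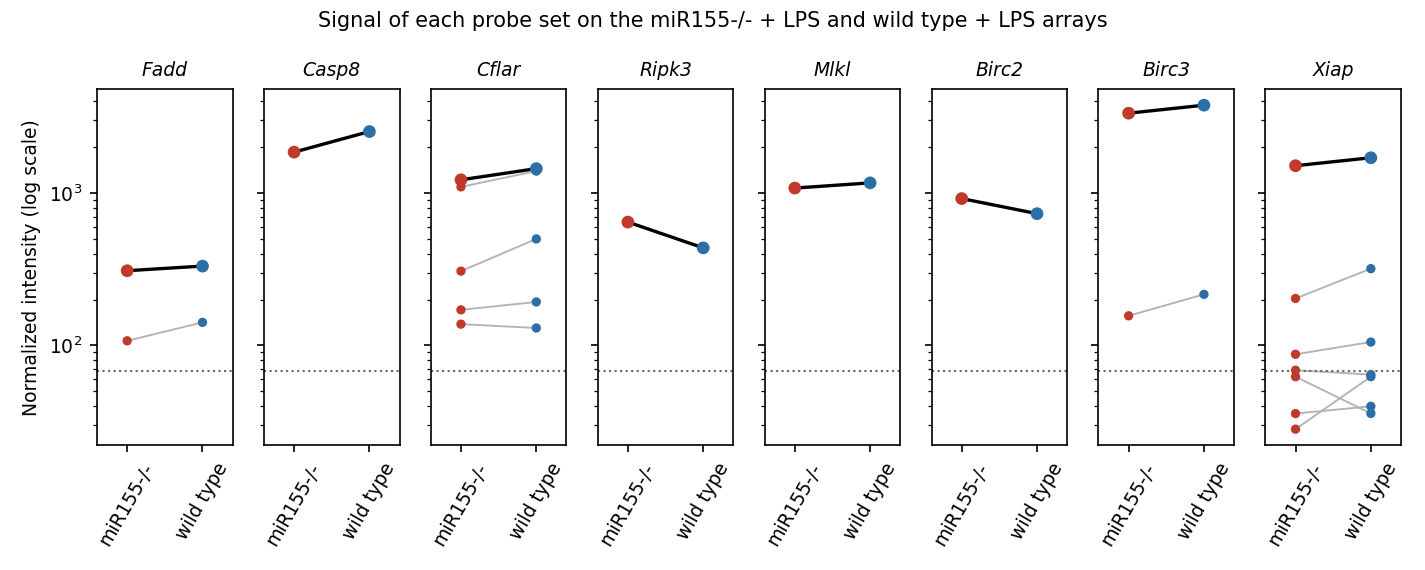
Normalized intensity (log scale) of each of the 20 probe sets on the miR155-/- + LPS array (red, left) and the wild type + LPS array (blue, right), 1 panel per gene; black lines join the probe set used for the gene, grey lines the others, and the dotted line is the floor of 67.6. The lines of Ripk3 and Birc2 run down towards wild type, and that of Casp8 runs up, with 1858 on the miR155-/- + LPS array against 2537 on the wild type + LPS array.

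The adaptor gene Fadd, one of the reported miR-155 targets, had a normalized signal of 309 in miR155-/- + LPS cells and 332 in wild type + LPS cells at its brighter probe set, a log2 difference of -0.10. Its dimmer probe set read 107 in miR155-/- + LPS cells against 142 in wild type + LPS cells, a difference of -0.40, so both were lower and the brighter one was within the probe set SD. As deposited, the brighter probe set had an intensity of 377 in miR155-/- + LPS cells and 272 in wild type + LPS cells, and the dimmer one 127 in miR155-/- + LPS cells and 118 in wild type + LPS cells. The brighter value turned to 0.05 with centring and 0.15 with hybridisation control scaling, in each case below the median gene. A higher Fadd signal relative to other genes was therefore not seen on these arrays.

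Casp8, the protease itself, was represented by 1 probe set. It read 1858 in miR155-/- + LPS cells and 2537 in wild type + LPS cells after normalization, 1.37-fold lower (log2 difference -0.45). The deposited intensities were 2285 in miR155-/- + LPS cells and 2062 in wild type + LPS cells, a ratio of 1.11, so that Casp8 was higher as deposited but by less than the median gene. Of all measured genes 7.69% were at least as far on the lower side, and of those in the brightest of 3 equal ranges of signal, to which Casp8 belongs, 3.89%. With no second probe set, the value could not be checked within the arrays.

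Cflar, which encodes the caspase-8 regulator cFLIP, had 5 measured probe sets, 4 lower and 1 higher. The brightest read 1223 in miR155-/- + LPS cells against 1448 in wild type + LPS cells (-0.24) and the next brightest 1099 in miR155-/- + LPS cells against 1394 in wild type + LPS cells (-0.34). Another read 307 in miR155-/- + LPS cells against 500 in wild type + LPS cells, 1.63-fold lower (-0.70), the largest difference among the 17 measured probe sets of these genes. The remaining pair gave 171 in miR155-/- + LPS cells against 193 in wild type + LPS cells (-0.17), and 138 in miR155-/- + LPS cells against 130 in wild type + LPS cells (0.08). The probe sets thus shared a direction except for the dimmest and differed in size; which cFLIP isoform each one reads is not known here. Cflar and Casp8 are next to each other on chromosome 1, with no other protein-coding gene between them in the reference gene table.

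Ripk3, the kinase that starts necroptosis, had the highest difference of the group. Its 1 probe set read 645 in miR155-/- + LPS cells and 437 in wild type + LPS cells, 1.48-fold higher (0.56), just under the 1.5-fold rule. The deposited intensities were 797 in miR155-/- + LPS cells and 355 in wild type + LPS cells, a ratio of 2.24. Of all measured genes 5.01% were at least as far on the higher side, and 2.15% of those in the same brightest range. Under centring the difference was 0.74 and under hybridisation control scaling 0.84, so Ripk3 passed 1.5-fold there, as did 7.63% of all measured genes on the higher side under centring and 12.2% under hybridisation control scaling.

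Mlkl, the membrane-rupturing target of RIPK3, did not share that difference. It read 1079 in miR155-/- + LPS cells and 1167 in wild type + LPS cells (-0.11), within the probe set SD, and the deposited ratio of 1.41 was close to the shift of the median gene. The difference of Ripk3 lay 0.68 above that of Mlkl and 1.01 above that of Casp8. Such a contrast between genes on the same arrays does not depend on a constant shift: Ripk3 minus Casp8 was 0.995 to 1.02 across quantile, deposited, centred, hybridisation-control and loess values, a 2.02-fold change of the ratio after quantile normalization. The pair was picked as the extremes of the group after the values were seen, and each gene rests on 1 probe set.

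To show the start regions of the genes with the most different values, and of the neighbouring pair Birc2 and Birc3, the 250 bases before the RefSeq start site (GRCm38.p6) are given, with CG dinucleotides in capitals. Casp8 lies at chr1:58802252-58802501 (plus strand), Ripk3 at chr14:55788858-55789107 (minus), Birc2 at chr9:7837058-7837307 (minus, the more distal of its 2 listed starts) and Birc3 at chr9:7873171-7873420 (minus).
Ripk3: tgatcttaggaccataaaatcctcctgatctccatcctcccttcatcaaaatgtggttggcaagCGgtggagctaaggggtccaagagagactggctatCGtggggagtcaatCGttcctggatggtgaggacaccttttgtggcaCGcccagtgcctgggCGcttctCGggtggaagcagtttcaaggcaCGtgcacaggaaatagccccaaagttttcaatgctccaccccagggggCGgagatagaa
Birc2: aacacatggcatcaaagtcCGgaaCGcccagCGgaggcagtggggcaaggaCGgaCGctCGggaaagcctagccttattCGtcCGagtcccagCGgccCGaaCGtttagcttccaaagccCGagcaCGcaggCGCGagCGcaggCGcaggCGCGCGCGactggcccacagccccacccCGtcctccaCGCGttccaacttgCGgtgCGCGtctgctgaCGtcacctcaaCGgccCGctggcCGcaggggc
Birc3: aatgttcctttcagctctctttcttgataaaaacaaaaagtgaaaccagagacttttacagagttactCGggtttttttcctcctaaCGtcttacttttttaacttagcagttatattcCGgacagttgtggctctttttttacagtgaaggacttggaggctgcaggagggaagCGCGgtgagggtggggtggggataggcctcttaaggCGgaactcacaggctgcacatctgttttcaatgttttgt
Casp8: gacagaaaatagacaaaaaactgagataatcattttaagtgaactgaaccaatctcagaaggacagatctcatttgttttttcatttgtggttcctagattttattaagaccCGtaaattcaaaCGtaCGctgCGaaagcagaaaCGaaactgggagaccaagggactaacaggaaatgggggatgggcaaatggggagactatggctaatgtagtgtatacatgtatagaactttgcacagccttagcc
The Birc2 window holds 31 CG dinucleotides and is 68.4% G or C, whereas that of Birc3 holds 6 and is 43.6% G or C. The window of the other listed Birc2 start, not printed, holds 19 and is 61.2% G or C. The windows of Casp8 and Ripk3 hold 5 and 8, at 39.6% and 54.0% G or C. The median over 32851 such RefSeq windows is 6 CG dinucleotides and 52.4% G or C. Across the 13 windows of all 9 genes none matched the NF-kB consensus motif or the AP-1 motif TGANTCA on either strand. Of all windows, 9.55% held the first motif and 6.75% the second. This says only that these letters are not in these 250 bases.

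The IAP genes differed among themselves. Birc2 (cIAP1) read 921 in miR155-/- + LPS cells against 733 in wild type + LPS cells at its 1 probe set, 1.26-fold higher (0.33), with deposited intensities of 1135 in miR155-/- + LPS cells and 589 in wild type + LPS cells. Birc3 (cIAP2), an NF-kB target gene, read 3348 in miR155-/- + LPS cells against 3778 in wild type + LPS cells (-0.17), and its other probe set 156 in miR155-/- + LPS cells against 216 in wild type + LPS cells (-0.47). Birc2 was thus higher and both Birc3 probe sets lower after quantile normalization, while with hybridisation control scaling Birc3 was at 0.05 and Birc2 at 0.62. The genes lie side by side on chromosome 9 and encode close relatives, and the contrast of Birc2 minus Birc3 was 0.50 to 0.57 over the 5 scalings and 0.65 with averaged probe sets. The reference gene table lists each of these symbols among the older names of the other, and whether their probe sets tell the 2 transcripts apart was not tested.

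Xiap, the direct caspase inhibitor, lies on the X chromosome and had 7 probe sets, of which 4 were measured. The brightest read 1513 in miR155-/- + LPS cells against 1707 in wild type + LPS cells (-0.17), the next 203 in miR155-/- + LPS cells against 319 in wild type + LPS cells (-0.65), and a dim one 87.4 in miR155-/- + LPS cells against 105 in wild type + LPS cells (-0.27). The fourth was above the floor on the miR155-/- + LPS array alone, at 68.6, and could only count as higher (at least 0.02). The remaining 3 lay under the floor on both arrays and give no difference. Over the group, 13 of 17 measured probe sets were lower after quantile normalization, beside 49.1% of all measured probe sets. As deposited, where the median measured gene was 0.54 higher, only a Cflar probe set (-0.11) and a Xiap probe set (-0.09) were lower. After quantile normalization, 2 of the 17 were at least 1.5-fold lower, those of Cflar and Xiap named above, beside 4.67% of all. At least 1.5-fold higher were 0, beside 4.77%. Probe sets of a gene share a transcript and are not independent.

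**Figure D2:**
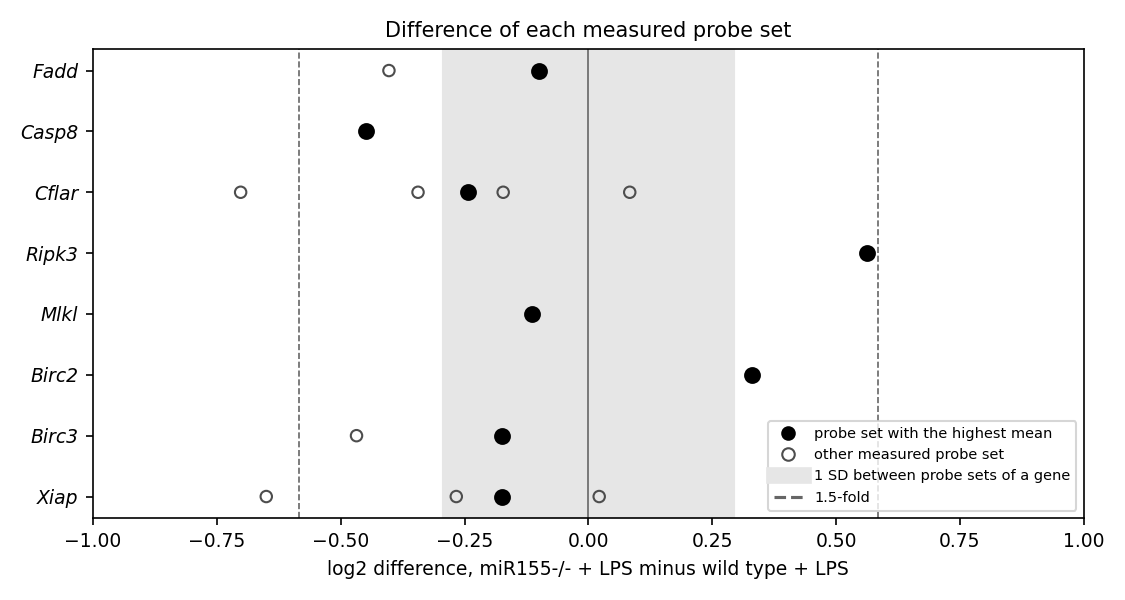
The log2 difference, miR155-/- + LPS minus wild type + LPS, of each of the 17 measured probe sets (horizontal axis) by gene after quantile normalization; filled points are the probe set used for the gene, open points the others, the grey band is 1 SD between probe sets of a gene (0.29) and dashed lines mark 1.5-fold. Ripk3 at 0.56 and Birc2 at 0.33 lie to the right of the band, Casp8 at -0.45 to its left, and dimmer probe sets of Cflar (-0.70) and Xiap (-0.65) pass the left dashed line.

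**Figure D3:**
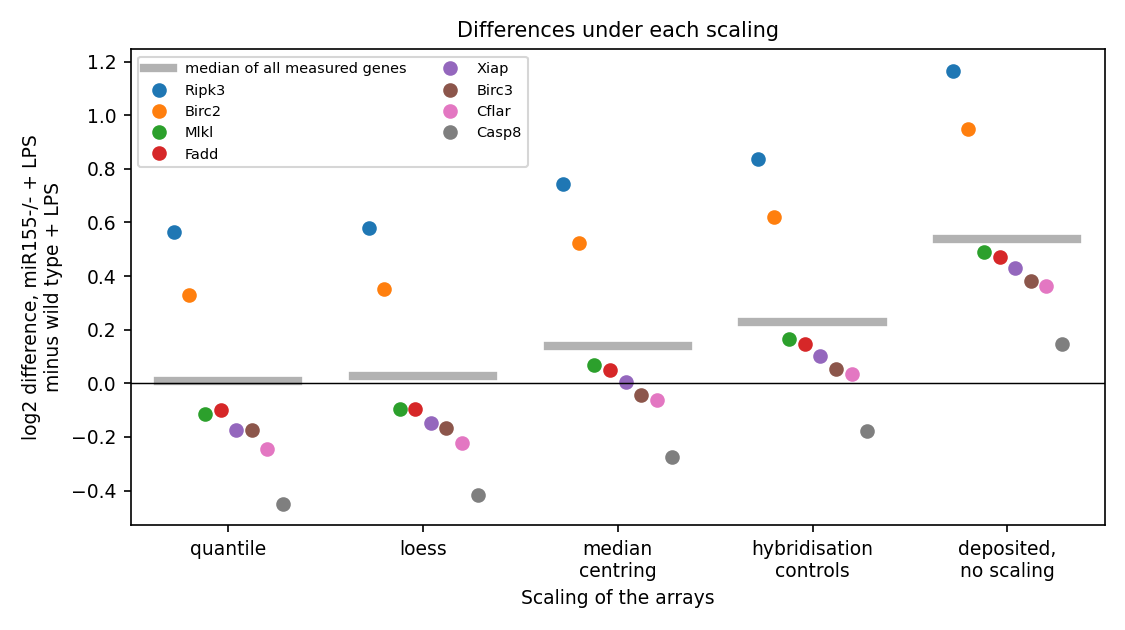
The log2 difference of each gene, miR155-/- + LPS minus wild type + LPS, under 5 scalings of the arrays; grey bars give the median of all measured genes, from 0.01 with quantile normalization to 0.54 in the deposited values. Ripk3 and Birc2 lie above the bar and the other 6 genes below it under every scaling shown, while Casp8 lies above 0 only in the deposited values. Centring, hybridisation control scaling and no scaling differ by a constant shift, so places against the bar are nearly fixed among them.

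The other genes of the pathway lay close to the bulk of genes. Of 85 genes listed by role, 77 were named on the array and 73 were measured. Of these, 44 were lower (beside 48.5% of all measured genes) and 29 higher (beside 51.5%). Their median was -0.03, against 0.01 over all measured genes. Of the 73, 4 were lower by 1.5-fold or more and 0 were higher by as much (backgrounds of 4.1% and 4.57%). With centring the pathway median was 0.14, the same as that of all measured genes, and 1 of 73 genes was at least 1.5-fold higher and 1 lower (backgrounds under that scaling of 7.63% and 2.91%). With hybridisation control scaling 6 of 73 were higher and 0 lower by 1.5-fold (backgrounds of 12.2% and 1.96%). In the deposited values 32 of 74 were higher and 0 lower (backgrounds of 43.5% and 0.498%), at a median of 0.56 against 0.54 for all measured genes. The pathway counts on the higher side were thus at or below the background under each of these scalings. The directions by role below are those after quantile normalization. They count differences of any size, many of them well within the probe set SD of 0.29. Genes of the list without a probe set assigned to them alone, such as Bax, Traf3, Chuk and Ripk2, were not analysed here.

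Among ligands, Tnf, which drives death receptor signalling in activated myeloid cells, read 1176 in miR155-/- + LPS cells against 1858 in wild type + LPS cells, 1.58-fold lower. Lymphotoxin alpha (Lta) had a log2 difference of -0.50, the TRAIL gene Tnfsf10 one of -0.20 with 3 of 3 probe sets lower, and Ltb, close to the floor, one of 0.50. Fas ligand was under the floor on both arrays. Of 9 measured receptors 7 were higher, beside 51.5% of all measured genes, at a median of 0.07. Tnfrsf1b (TNFR2) had a difference of 0.19, with 1 of 2 probe sets higher, Tnfrsf1a (TNFR1) one of 0.03, and the LPS receptor gene Tlr4 one of 0.01, with 1 of 3 measured probe sets higher. The ligand and receptor lists are small, and the values describe these 2 arrays.

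Of 11 measured adaptors 9 were lower, beside 48.5% of all measured genes, at a median of -0.06. Traf1, an NF-kB-induced partner of the cIAPs at TNF receptors, read 1025 in miR155-/- + LPS cells against 1706 in wild type + LPS cells, 1.66-fold lower, with 2 of 2 probe sets lower. Zbp1, a nucleic acid sensor that binds RIPK3, had a difference of -0.15. The death effector domain genes Pea15a and Dedd had differences of -0.01 and -0.03. Among 14 ubiquitin ligases, deubiquitinases and their partners 10 were lower, beside 48.5% of all measured genes, most by little. Tnfaip3 (A20) had a difference of -0.27 and its partner Tnip1 one of -0.06. Peli1, a ubiquitin ligase of Toll-like receptor signalling, had one of 0.40, with 3 of its 4 measured probe sets lower. Of the 14 measured genes listed as kinases, which include kinase partners and the phosphatase Ppm1b, 7 were higher and 7 lower. Csnk1a1 had a difference of -0.10, Tbk1 one of 0.21 and Tab2, an adaptor of the TAK1 kinase, one of 0.31. Tbk1 and Tab2 each had 2 of 2 probe sets higher.

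Downstream caspases and mitochondrial genes were split, 5 higher and 6 lower, with a median of -0.02. Cytochrome c (Cycs) had a difference of 0.20, the pore-forming Bak1 one of -0.04 and the caspase substrate gene Parp1 one of 0.05. In the wider IAP family and its antagonists 7 of 10 were lower, beside 48.5% of all measured genes, at a median of -0.08. Birc5 (survivin, an IAP relative that acts in mitosis) was dim and read 78.5 in miR155-/- + LPS cells against 130.0 in wild type + LPS cells, 1.66-fold lower, and Septin4, whose ARTS isoform binds XIAP, was at least 1.51-fold lower, being under the floor of 67.6 on the miR155-/- + LPS array. The XIAP-binding Xaf1 had a difference of -0.34, Naip2, an inflammasome sensor with IAP repeats, one of 0.19, and the mitochondrial protease gene Htra2 one of 0.02.

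**Figure D4:**
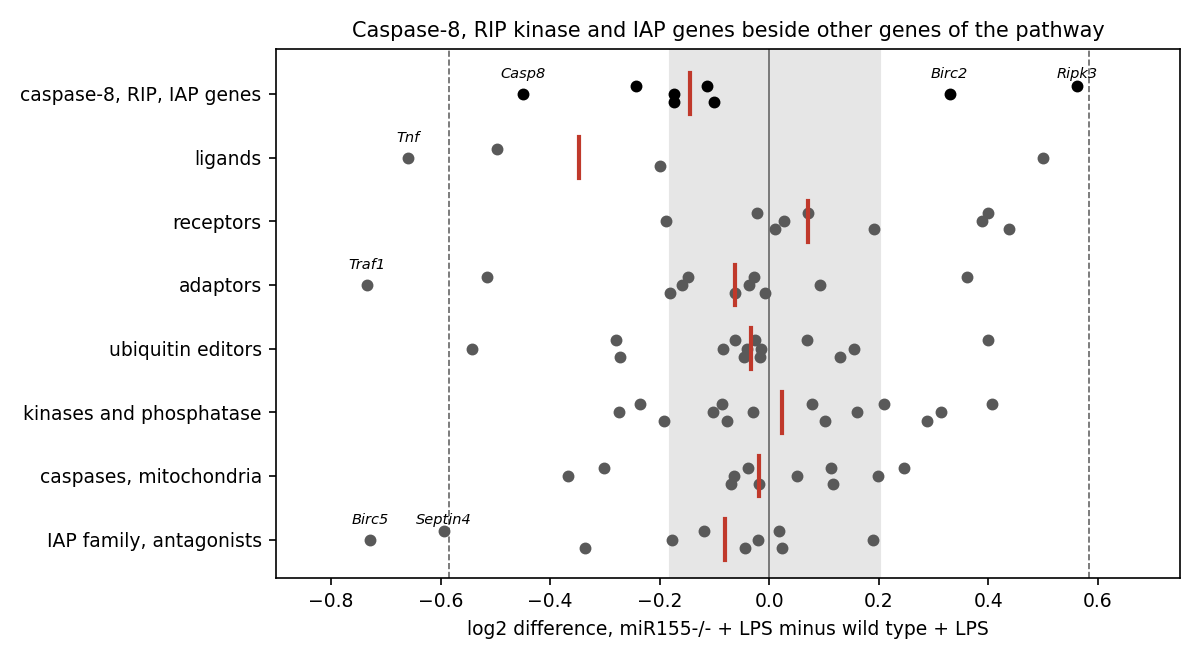
The log2 difference, miR155-/- + LPS minus wild type + LPS, of each measured gene of the group (top row, 8 genes) and of the other pathway genes by role; red bars are row medians, the grey band spans the middle 50% of all measured genes and dashed lines mark 1.5-fold. Tnf, Traf1, Birc5 and Septin4 are the genes beyond the left dashed line, and none lies beyond the right one.

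Signals of some cell type markers differed between the arrays, as did those of 18S ribosomal RNA. Cell composition and RNA quality could differ as well, and their part in these results was not tested. Dendritic cell markers were present on both arrays (10 of 10 measured; 8 lower; summed signal 28590 in miR155-/- + LPS and 31608 in wild type + LPS cells), but macrophage markers were as well (7 of 7 named; 5 higher; 35703 in miR155-/- + LPS and 35337 in wild type + LPS cells). Of all measured genes, 48.5% were lower and 51.5% higher by any size, which is how these markers were counted. The macrophage sum came mostly from Csf1r, Adgre1 and Cd14. More than 1.5-fold higher were 2 other markers, beside 4.57% of all measured genes. Mrc1 read 288 in miR155-/- + LPS cells against 138 in wild type + LPS cells (2.08-fold), and Mertk 558 against 318 (1.75-fold). The 2 macrophage markers that were lower were Cd14 (7911 in miR155-/- + LPS cells against 10690 in wild type + LPS cells) and Fcgr1 (2546 against 3008). By the same rule 0 of 10 dendritic cell markers differed. Lower were 1 of 7 granulocyte, 3 of 5 mast cell and basophil, 3 of 3 B and plasma cell and 1 of 3 T and NK markers. The share of all measured genes at least 1.5-fold lower was 4.1%. Among these calls, Ltf, Mcpt8, Cpa3 and Mzb1 were at the floor on the miR155-/- + LPS array, so their differences are lower bounds. The counts that follow are by any size, beside the 48.5% of all measured genes that were lower. Granulocyte markers were lower in 6 of 7 (summed 7836 in miR155-/- + LPS and 6886 in wild type + LPS cells, most of it from S100a8, the 1 that was higher), mast cell and basophil markers in 5 of 5 measured (1743 in miR155-/- + LPS and 3163 in wild type + LPS cells, Fcer1a under the floor), and B and plasma cell markers in 3 of 3 measured (303 in miR155-/- + LPS and 1424 in wild type + LPS cells), with Cd79a and Pax5 under the floor. T and NK markers were mostly under the floor (3 of 7 measured, 372 in miR155-/- + LPS and 475 in wild type + LPS cells; Cd3e and Cd3g under it). In such bulk RNA, fewer cells of a type and less RNA per cell cannot be told apart. Deposited intensities of the 3 probe sets for 18S ribosomal RNA, a control, were 389 to 582 on the miR155-/- + LPS array and 95.1 to 126 on the wild type + LPS array, and the ratio of 3' to 5' signal on the miR155-/- + LPS and the wild type + LPS array was 1.25 and 1.28 for beta-actin and 0.88 and 0.84 for Gapdh.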

How the data were processed

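The deposited value table holds, per the file headers, 1 intensity for each of 45101 Affymetrix probe sets on each of 2 arrays; the algorithm and scaling behind it and any detection calls are not given in the sources read. Per the labels' protocols, 6 ug of total RNA went into biotin-labelled cRNA. The 64 control probe sets were set aside and log2 intensities of the other 45037 were quantile normalized, because the medians differed by 34.1%, above a limit of 10%. The median of all normalized values (67.6) served as a floor, which is not a detection call; a gene was measured where its probe set exceeded it on at least 1 array, and a difference with the other array at the floor is a lower bound. Each gene was represented by its brightest probe set (mean of both log2 values). Symbols came from the platform annotation (34945 probe sets with 1 gene, 932 with several, 9160 unnamed) and were updated by gene ID through the RefSeq gene table (34741 matched), which carries GRCm38.p6 and was otherwise used for sequence and gene order only. The number of arrays limits the precision. No test was possible; calls are a size rule of 1.5-fold. The 9 genes, the pathway lists and the settings were chosen with earlier results of these data known. Named genes are all members, Mir155hg and, from each pathway list, those at least 1.5-fold different and up to 3 brightest others. Marker genes are named for their status. Exceptions, added after values were seen, are Mrc1, Mertk, Fcgr1, the genes behind marker sums and the neighbouring genes in the closing observations. Alternatives covered 4 scalings, 3 floors and 3 rules for the probe set. Quantile normalization, centring and loess were also run on simulated arrays with known differences. Python 3.11.15, numpy 2.4.6, pandas 2.3.3, statsmodels 0.14.6 (loess, span 0.4) and matplotlib 3.10.9 were used.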

Additional observations from a re-analysis of the deposited data

How the results depend on the processing

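Over 10 alternatives and 14 results, 127 of 140 values moved by less than the probe set SD of 0.29 or kept their count. The other 13 moved by more or changed their count. Many of the 140 could not move, so the 127 are not a count of independent checks. The probe sets used for the 8 genes lie above each floor, and genes with 1 probe set keep it under each probe set rule. The sign differed from that under quantile normalization for 20 of the 140: 8 with no scaling, 5 with centring and 7 with hybridisation control scaling. The median of the measured genes, -0.14 under quantile normalization, was 0.03 with centring and 0.12 with hybridisation control scaling (median measured gene 0.14 and 0.23), and that of the pathway list 0.14 and 0.24. Fadd (0.05), Mlkl (0.07) and Xiap (0.01) were above 0 with centring, as were Fadd (0.15), Mlkl (0.16), Cflar (0.03), Birc3 (0.05) and Xiap (0.10) with hybridisation control scaling. On the deposited values with no scaling, the median of the measured genes was 0.45 and that of the pathway list 0.56, and the differences were 0.15 for Casp8, 0.47 for Fadd, 1.17 for Ripk3, 0.49 for Mlkl, 0.36 for Cflar, 0.95 for Birc2, 0.38 for Birc3 and 0.43 for Xiap, where the median measured gene was at 0.54. The number of genes at least 1.5-fold higher was 0 under quantile normalization, 1 with centring on the median (Ripk3), and 2 with hybridisation control scaling and with no scaling (Ripk3 and Birc2). The number at least 1.5-fold lower was 0 under all 10. Over all genes, calls at 1.5-fold numbered 543 higher and 487 lower under quantile normalization, 907 and 346 with centring, 1449 and 233 with hybridisation control scaling, 5239 and 60 with no scaling, 2497 and 2462 with no floor, 1561 and 1560 with the floor at the 25th percentile, 147 and 148 at the 75th, and 302 and 290 with the median of all probe sets. The contrasts of Ripk3 minus Casp8 (0.995 to 1.02) and Birc2 minus Birc3 (0.50 to 0.65), chosen after seeing the data, kept their direction under all 10. Most of the 10 could not change this: constant shifts cancel in a contrast, and the floors lie below the probe sets used. Ripk3 and Casp8 have 1 probe set each, so the probe set rules left their contrast as it was. No paired analysis was possible because each genotype has 1 array.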

Other observations

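The genes that flank the neighbouring pair Cflar and Casp8 on chromosome 1 had differences of the other sign after quantile normalization. The 3 nearest measured genes on one side were Orc2 (265 in miR155-/- + LPS cells against 230 in wild type + LPS cells, a log2 difference of 0.21), Fam126b (0.18) and Ndufb3 (0.15), and on the other side Trak2 (0.33), Stradb (0.37) and Tmem237 (0.08), whereas Cflar was at -0.24 and Casp8 at -0.45. Orc2, Fam126b, Ndufb3, Tmem237 and Cflar lay within the probe set SD of 0.29. The sign of the pair depends on the scaling. Cflar was at 0.03 and Casp8 at -0.18 with hybridisation control scaling, and they were at 0.36 and 0.15 as deposited. Around Birc2 and Birc3 on chromosome 9, the matrix metalloproteinase gene Mmp8 was at 0.37, Mmp7 was above the floor only in miR155-/- + LPS cells (at least 0.39) and Tmem123 was at -0.12; on the other side Cep126 was at -0.41, Ccdc82 at -0.25 and Phxr4 at -0.18. These windows of 3 genes a side were looked at after the values of the pairs were known, and they describe 2 arrays only.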
